A study of Homo sapiens with 12 samples.

Results

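Gene expression was measured in MCF10A, a human line of mammary epithelium that forms no tumours, in a design that combines presence and absence of 2 names in the sample titles, Cas and ErbB2. The 4 groups were Cas/ErbB2, ErbB2, Cas and Ctr MCF10A.B2, called control here, with 3 arrays each, and all 12 arrays of the series entered. All groups are described as modified MCF10A cells, so the control is not an unmodified line. What MCF10A.B2 cells carry, how Cas or ErbB2 was raised or activated, and whether a group is 1 clone are not given in the labels. The array names mark ErbB2 as M+, control as M-, Cas/ErbB2 as C+ and Cas as C-. The quantity of interest was the interaction, the ErbB2 effect in the presence of Cas minus the ErbB2 effect in its absence, written as (Cas/ErbB2 minus Cas) minus (ErbB2 minus control) on log2 normalized signal. It is 0 where the combined change equals the sum of the changes with Cas alone and with ErbB2 alone, which on the log2 scale means that the folds multiply. Probes were kept when their detection p-value was under 0.05 on all 12 arrays. This left 10023 of 47224 probes, which gave 8424 items, namely 6577 named genes, each read by its brightest kept probe, and 1847 probes without a gene symbol.

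ErbB2, a tyrosine kinase at the cell surface and a relative of the EGF receptor, signals through the Ras to ERK and PI3K pathways, and its gene is amplified in a subset of breast cancers. Cas, or p130Cas, is the product of BCAR1, a scaffold of focal adhesions that is phosphorylated by Src-family kinases and recruits Crk and the Rac activator DOCK1. The series title ties both proteins to invasion. A transcript can respond to the combination additively, more strongly than additively, or less strongly than additively, and these cases are described in turn.

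Values are log2 normalized signals, differences are log2 differences between group means, ± gives the standard error from limma (n = 3 arrays in a group), and adjusted p is limma's Benjamini-Hochberg value over all 8424 items. A call means adjusted p under 0.05. The labels do not state that the samples of a group were grown separately, and the p-values therefore measure the spread among these samples alone, which could be technical. In bulk RNA, fewer cells that express a gene and less RNA per cell cannot be told apart.

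The control arrays stood apart from the other 9. Their median raw signal was 171 to 202, against 547 to 623 in Cas/ErbB2, 477 to 577 in ErbB2 and 510 to 614 in Cas, and 19076 to 19416 probes were detected on them against 12864 to 15984 on the rest. The column names give a hybridization mark to the control arrays alone, III for replicates 1 and 2 and II for replicate 3, so hybridization and the control group cannot be told apart. The control mean enters the interaction with a positive sign and both single effects with a negative sign, so any shift of the control arrays gives a pair of equal single effects and an opposite interaction. The direct comparisons of Cas/ErbB2 with ErbB2 and with Cas do not use the control means, and genes of the synergy and cancellation classes below passed both of them. The ErbB2 effect with Cas is the second of these comparisons. Both classes also require a called interaction and use the comparison of Cas/ErbB2 with control, so the control means still enter them. Cas/ErbB2 replicate 3 also differed from its group: it had 15984 detected probes against 12864 and 13350, and its correlation with replicates 1 and 2 was 0.973 and 0.974, while these correlated at 0.987. The basal mammary genes KRT5, KRT14, CDH3, ITGB4 and LAMB3 were detected on all 12 arrays, as were 5 of 6 luminal markers. Of markers of other cell types, each read by its brightest probe, 5 of 8 (fibroblasts), 4 of 8 (blood cells) and 2 of 6 (endothelium) were detected on some array. FAP (fibroblasts), CD14 and CD68 (blood cells) and PECAM1 (endothelium) were detected on all 12. The brightest probes of the fibroblast genes COL1A1 and DCN were detected on 2 of 3 Cas/ErbB2 arrays and on every array of the other groups. A dimmer DCN probe was detected on all 12 arrays, so DCN entered the items. COL3A1, PDGFRA and PDGFRB (fibroblasts), PTPRC, CD3E and LYZ (blood cells) and VWF, CDH5 and KDR (endothelium) were detected on no array.

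The interaction was called in 771 of 8424 items (9.15%), of which 265 were positive (3.15%) and 506 negative (6.01%). The median interaction over all items was -0.04. The number depended on single arrays: it was 394 without control replicate 2, 510 without control replicate 3, 491 without ErbB2 replicate 2, 502 without Cas replicate 1 and 1037 without Cas/ErbB2 replicate 3. Under median scaling over all probes, an alternative added after the data were seen, the median interaction was 1.58, and 24 of the 45 negative named genes turned positive, while none of the 91 called named genes changed sign relative to that median. On the linear scale, where additive means that the signals add, the departure had the same sign in all 265 positive items and in 502 of 506 negative ones. The classes below use the simple comparisons, in which the share of all items called was 43.7% for Cas/ErbB2 against control (23.3% higher, 20.4% lower), 29.9% for ErbB2 against control and 20.9% for Cas against control. It was 6.84% for Cas/ErbB2 against ErbB2 (3.24% higher, 3.6% lower) and 20.2% for Cas/ErbB2 against Cas (9.79% higher, 10.4% lower). The called items were sorted by what the combination did against each of its parents. Synergy means that Cas/ErbB2 passed the test against ErbB2, against Cas and against control, all in the direction of the interaction, and held 94 positive (1.12%) and 55 negative (0.653%) items. Cancellation means that Cas/ErbB2 passed against ErbB2 and against Cas in that direction but did not pass beyond the control in that direction, whether or not each single effect was called, and held 17 positive (0.202%) and 31 negative (0.368%) items. Plateau means that both single effects were called in the direction opposite to the interaction and Cas/ErbB2 differed from neither parent by the test, and held 71 positive (0.843%) and 302 negative (3.58%) items. An asymmetric class, in which Cas/ErbB2 passed against 1 parent alone, held 61 positive (0.724%) and 67 negative (0.795%) items, and 22 positive (0.261%) and 51 negative (0.605%) items were left over.

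**Figure D1:**
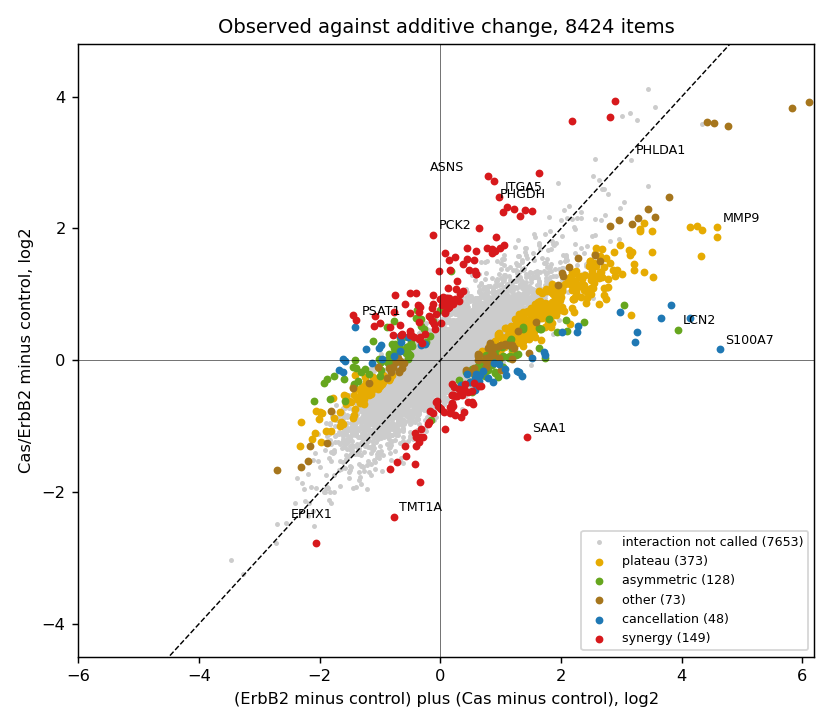
Each point is 1 of 8424 items, with the sum of the ErbB2 and Cas effects against control on the x axis and the Cas/ErbB2 effect against control on the y axis, both log2, coloured by class. The dashed line marks additivity. The 302 negative plateau items lie right of it, at positive values on both axes, S100A7 and LCN2 lie near 0 on the y axis with sums of 4.64 and 3.93, and ASNS, PHGDH and PCK2 lie above it.

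In the scatter of observed against additive change the cloud of yellow points shows the plateau items, whose medians were 0.74 for Cas/ErbB2, 0.85 for ErbB2 and 0.85 for Cas against control in the negative class. Red points above the line are the positive synergy items, with medians of 0.95 for Cas/ErbB2, 0.27 for ErbB2 and -0.20 for Cas against control. The median Cas effect of these items was thus below 0 although Cas/ErbB2 exceeded ErbB2 by a median of 0.74. When the control arrays were left out and the other 9 refitted, an alternative added after the data were seen, 81 of the 94 positive and 45 of the 55 negative synergy items were called both against ErbB2 and against Cas. Of the 302 negative plateau items 8 were called in at least 1 of these comparisons, and of the 71 positive ones 0, at a limma adjusted p under 0.05 in each. Of the cancellation items, 7 of 17 positive and 21 of 31 negative ones were called in both. The classes are defined by these same comparisons, so the counts describe the refit and are no test of the classes.

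Enzymes that make serine and asparagine were among the genes that rose furthest beyond additivity. The list of amino acid response genes, which are known targets of the transcription factor ATF4, had 14 measured members, of which 7 had a positive interaction (background 3.15%) and 0 a negative one, with a median of 0.64 against -0.04 for all items. Leaving out single arrays gave 5 to 8 positive members, the lowest without control replicate 2. The 7 were ASNS, PSAT1, PHGDH, SLC3A2, SLC7A5, MTHFD2 and SHMT2. ATF4 itself had an interaction of 0.09 and was not called, and neither were the stress genes ATF3 (-0.18) and TRIB3 (0.49).

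ASNS encodes asparagine synthetase, a classical ATF4 target. Its signal was 12.40, 12.41 and 12.80 in Cas/ErbB2, 10.67, 11.33 and 11.23 in ErbB2, 9.20, 8.95 and 9.48 in Cas, and 9.92, 9.73 and 9.59 in control. Every Cas/ErbB2 array lay above every other array. Every Cas array lay below every control array, but the Cas effect of -0.54 was not called. The ErbB2 effect was 3.33 with Cas and 1.33 without it, Cas/ErbB2 exceeded ErbB2 by 1.46, and the interaction was 2.00 ± 0.27 (limma adjusted p = 0.000753). The promoter of ASNS is shown because it holds an amino acid response element, the kind of site to which ATF4 binds. The stretch is chr7:97872359-97872658 of GRCh38.p14 on the minus strand, from 250 bases before to 50 bases after the RefSeq start, with the match to TGATGNAA in capitals, 68 to 61 bases before the start.
ASNS: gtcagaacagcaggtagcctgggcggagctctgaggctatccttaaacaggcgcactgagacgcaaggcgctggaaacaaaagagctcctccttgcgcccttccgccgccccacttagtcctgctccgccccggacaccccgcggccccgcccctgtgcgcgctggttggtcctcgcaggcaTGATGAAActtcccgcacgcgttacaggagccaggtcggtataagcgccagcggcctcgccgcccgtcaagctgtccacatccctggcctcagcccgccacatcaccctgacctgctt
This motif, searched on both strands, was found in 1270 of 35116 promoter windows of that length (3.62%), in 142 of 5518 measured genes with a window (2.57%) and in 6 of 66 genes of the positive synergy class with a window (9.09%). The motif was chosen after the genes were seen, and a match is a description of the letters.

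PHGDH, which catalyses the first step of serine synthesis from a glycolytic intermediate, followed ASNS. It had 13.23, 13.34 and 13.18 in Cas/ErbB2, 11.43, 11.82 and 11.40 in ErbB2, 10.17, 10.69 and 10.38 in Cas, and 10.67, 10.34 and 10.60 in control. The Cas and control arrays overlapped, the ErbB2 arrays lay above them, and the Cas/ErbB2 arrays lay above all others. The interaction was 1.82 ± 0.22 (limma adjusted p = 0.000472), with an ErbB2 effect of 2.84 with Cas and 1.01 without. PSAT1, the next enzyme of the pathway, ran differently. It had 12.76, 12.94 and 13.02 in Cas/ErbB2, 11.51, 12.02 and 11.57 in ErbB2, 11.60, 11.35 and 11.58 in Cas, and 12.38, 12.19 and 12.32 in control. Each single condition lay below control and the combination lay above it, without overlap, so that the ErbB2 effect was 1.40 with Cas and -0.60 without. Its interaction was 2.00 ± 0.20 (limma adjusted p = 0.000163).

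PCK2, the mitochondrial enzyme that makes phosphoenolpyruvate from oxaloacetate, had the largest positive interaction among the named genes, 2.03 ± 0.25 (limma adjusted p = 0.000485). Its signal was 11.63, 11.47 and 11.81 in Cas/ErbB2, 10.02, 10.46 and 10.53 in ErbB2, 8.69, 9.31 and 8.98 in Cas, and 9.93, 9.64 and 9.60 in control. Cas alone lay below control, by -0.73, and ErbB2 alone above it, by 0.61, both called. The transporter subunits SLC3A2 and SLC7A5, which together import large neutral amino acids, had positive interactions of 0.96 ± 0.16 and 0.85 ± 0.17 with a different order of the groups. Control had the highest signal of both genes, and Cas/ErbB2 stayed below control by -0.62 for SLC3A2 and -1.30 for SLC7A5. The mitochondrial folate enzymes MTHFD2 and SHMT2 had interactions of 0.74 and 0.62.

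HSPA5, the main chaperone of the endoplasmic reticulum and its sensor of unfolded protein, had an interaction of 1.74 ± 0.23 (limma adjusted p = 0.000753). It had 9.92, 9.90 and 10.22 in Cas/ErbB2, 9.30, 8.86 and 9.53 in ErbB2, 8.39, 8.52 and 8.26 in Cas, and 9.36, 9.50 and 9.19 in control. The Cas arrays were lowest and did not overlap any other group, the ErbB2 and control arrays overlapped, and the Cas/ErbB2 arrays were highest. Its promoter is shown because it carries the endoplasmic reticulum stress response element, a site known to be read by ATF6 and NF-Y. It is chr9:125241294-125241593 of GRCh38.p14 on the minus strand (RefSeq), with the match in capitals (CCAAT, any 9 bases, CCACG), 66 to 48 bases before the start.
HSPA5: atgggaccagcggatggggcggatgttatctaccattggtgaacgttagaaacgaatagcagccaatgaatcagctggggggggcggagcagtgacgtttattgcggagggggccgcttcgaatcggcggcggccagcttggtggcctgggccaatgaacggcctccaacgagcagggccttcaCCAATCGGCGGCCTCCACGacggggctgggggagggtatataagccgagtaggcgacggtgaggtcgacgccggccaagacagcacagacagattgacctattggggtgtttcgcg
The element was found in 27 of 35116 promoter windows (0.0769%), in 11 of 5518 measured genes (0.199%) and, in the positive synergy class, in HSPA5 alone of 66 genes. Of 12 measured chaperones and folding factors 2 had a positive interaction (background 3.15%), HSPA5 and EDEM1 (0.83), and 0 a negative one, with a median of 0.18. HSP90B1 (0.36), CALR (0.20), DNAJB9 (0.06) and XBP1 (0.37) were not called.

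**Figure D2:**
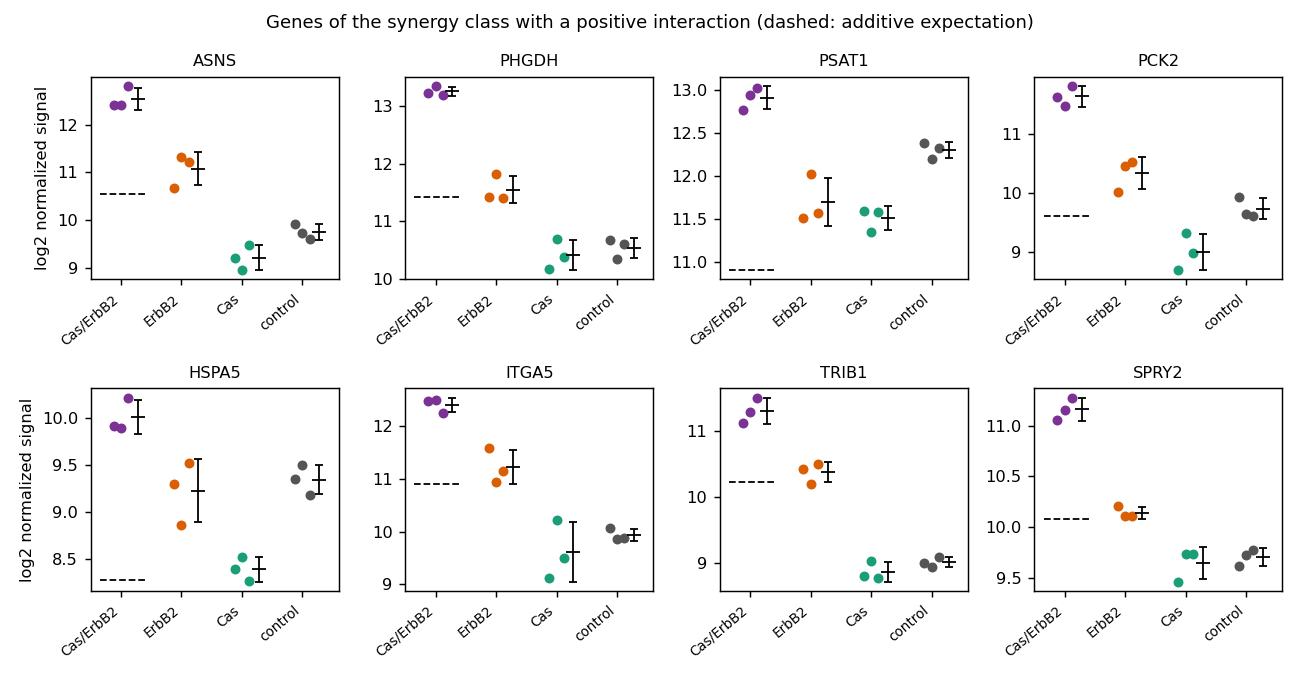
Log2 normalized signal (y axis) of 8 genes of the positive synergy class on the 12 arrays, by group (x axis). Points are arrays, the cross with bar is mean ± SD (n = 3), and the dashed line is the level at which Cas/ErbB2 would be additive. In every panel the 3 Cas/ErbB2 arrays lie above the dashed line and above the arrays of the other groups.

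The panels of synergy genes place ITGA5, TRIB1 and SPRY2 beside the metabolic genes. ITGA5, the alpha chain of the fibronectin receptor, was the member of 8 measured integrin chains whose interaction was called (background 9.15%), at 1.51 ± 0.32 (limma adjusted p = 0.0118). It had 12.49, 12.50 and 12.26 in Cas/ErbB2, 11.58, 10.95 and 11.16 in ErbB2, 9.12, 10.22 and 9.50 in Cas, and 10.07, 9.85 and 9.88 in control. Cas and control overlapped, with a Cas spread wider than in the other groups. ITGB4 (0.87) and ITGB1 (0.65) were not called, and ITGA2 (-0.10) was additive within the bound described below. LAMB3, a chain of laminin-332 in the epithelial basement membrane, had 15.15, 15.05 and 14.74 in Cas/ErbB2, 14.23, 13.90 and 14.15 in ErbB2, 12.95, 13.22 and 12.96 in Cas, and 13.08, 13.12 and 13.12 in control, an interaction of 0.95 ± 0.19 (limma adjusted p = 0.00814) that was not called under median scaling over the kept probes (0.75, limma adjusted p = 0.0978). It was the 1 called member among 7 basement membrane and hemidesmosome genes (background 9.15%), whose median was 0.56.

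Output genes and feedback inhibitors of the ERK pathway mostly showed no called departure. Of 19 measured members 15 rose with ErbB2 alone (background 17.2%) and 7 with Cas alone (background 13%). A positive interaction was called in 2 (background 3.15%) and a negative one in 1 (background 6.01%), with a median of 0.01. SPRY2, an inhibitor of receptor tyrosine kinase signalling, had 11.05, 11.16 and 11.28 in Cas/ErbB2, 10.21, 10.11 and 10.11 in ErbB2, 9.46, 9.73 and 9.74 in Cas, and 9.61, 9.73 and 9.78 in control. Cas alone did not differ from control by the test (-0.06), and the interaction was 1.08 ± 0.16 (limma adjusted p = 0.00201). TRIB1, a pseudokinase, had an interaction of 1.07 ± 0.19 and likewise a Cas effect of -0.14 that was not called. DUSP6, the cytoplasmic phosphatase of ERK, ran the other way: it had 13.89, 13.74 and 13.62 in Cas/ErbB2, 13.29, 13.49 and 13.53 in ErbB2, 12.76, 12.99 and 12.96 in Cas, and 11.31, 11.14 and 11.38 in control. Both single effects were called, 2.16 for ErbB2 and 1.63 for Cas, and the combined change of 2.48 fell short of their sum of 3.79, an interaction of -1.31 ± 0.17 (limma adjusted p = 0.000745). With the mean of both DUSP6 probes it was -0.69 and not called (limma adjusted p = 0.0502), and the dimmer probe on its own was not called. PHLDA1, MAFF, EPHA2, DUSP5 and SPRY4 were additive within the bound.

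Several genes next to the 2 named proteins were in the positive classes. ERRFI1, which binds and inhibits EGF family receptors, had 12.70, 12.97 and 12.94 in Cas/ErbB2, 12.07, 12.21 and 12.32 in ErbB2, 11.97, 11.76 and 11.86 in Cas, and 12.01, 12.04 and 11.89 in control, an interaction of 0.79 ± 0.17 (limma adjusted p = 0.0107). BCAR3, a direct partner of p130Cas, had an interaction of 0.82 ± 0.19, with the 3 Cas/ErbB2 arrays at 11.76, 11.52 and 11.83 and no array of ErbB2, Cas or control above 11.36. EGFR, DOCK1 and TNS3 had positive interactions of 0.92, 1.29 and 1.11 of the plateau kind: each was lower than control in the other 3 groups by similar amounts. For EGFR the differences from control were -1.20 in Cas/ErbB2, -1.09 in ErbB2 and -1.03 in Cas. In the list of p130Cas and focal adhesion adaptors 3 of 17 measured members were positive (BCAR3, TNS3, DOCK1) and 0 negative, with a median of 0.27. In the list of ErbB receptors and ligands 2 of 4 were positive (ERRFI1, EGFR). The background was 3.15% positive and 6.01% negative. For the plateau genes EGFR, DOCK1 and TNS3 a shift of the control arrays would give the same pattern, and this was not tested.

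BCAR1 and ERBB2 themselves had no called interaction, though that of ERBB2 was called as negative in 3 of 26 other settings. BCAR1 had 8.94, 9.21 and 9.29 in Cas/ErbB2, 9.78, 9.32 and 8.79 in ErbB2, 9.34, 9.55 and 9.10 in Cas, and 10.05, 9.41 and 9.44 in control, and all groups overlapped another (interaction 0.15 ± 0.33, limma adjusted p = 0.816). ERBB2 had 8.94, 8.91 and 9.42 in Cas/ErbB2, 9.99, 9.75 and 9.95 in ErbB2, 10.34, 10.21 and 9.84 in Cas, and 10.40, 10.14 and 10.25 in control (interaction -0.67 ± 0.23, limma adjusted p = 0.0881). BCAR1 was not called higher in a group whose label names Cas. ERBB2 was called lower in Cas/ErbB2, by -1.17 against control, -0.80 against ErbB2 and -1.04 against Cas, and its difference of -0.37 between ErbB2 and control was not called. Whether the probes lie in the introduced sequences is not known, so these values do not check the labels.

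Other genes with a positive interaction included matrix, mesenchymal and lysosomal genes. TIMP1, an inhibitor of matrix metalloproteinases, had 15.06, 15.01 and 15.25 in Cas/ErbB2, 14.18, 14.29 and 14.35 in ErbB2, 14.31, 14.23 and 14.10 in Cas, and 14.79, 14.51 and 14.43 in control, an interaction of 1.20 ± 0.17 (limma adjusted p = 0.00161). TIMP3 had an interaction of 1.04 ± 0.25, a call lost without Cas replicate 3 and without control replicate 2, and was no synergy gene: Cas/ErbB2 lay below control by -0.77 and was not called against ErbB2 (0.53) or Cas (-0.27). SNAI2, a repressor of epithelial genes, had 13.80, 13.78 and 13.73 in Cas/ErbB2 and at most 13.30 on any other array, an interaction of 0.75 ± 0.14. AXL, a receptor tyrosine kinase of mesenchymal cells, had an interaction of 1.32 ± 0.17 but did not exceed control: it was lower with ErbB2 alone (-0.62) and Cas alone (-0.98), and its difference from control in Cas/ErbB2 was -0.28, not called. NPC1, the lysosomal cholesterol exporter, had an interaction of 1.17 ± 0.18. CD68, a lysosomal membrane protein best known from macrophages, had one of 0.93 ± 0.22. The CD68 interaction was not called with the mean of its probes (0.53, limma adjusted p = 0.173) or without control replicate 2. Of genes that mark blood cells, PTPRC was detected on no array and CD14 on all 12. PELI1, a ubiquitin ligase of innate immune signalling, repeated the PSAT1 pattern: 9.58, 9.38 and 9.71 in Cas/ErbB2, 8.54, 8.54 and 8.78 in ErbB2, 8.28, 8.46 and 8.33 in Cas, and 8.88, 9.08 and 9.15 in control (interaction 1.62 ± 0.18, limma adjusted p = 0.000343).

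Fewer genes fell beyond additivity. SAA1, an acute phase protein, had the largest fall of the synergy class. Its signal was 10.62, 10.66 and 10.44 in Cas/ErbB2, 12.51, 12.16 and 12.23 in ErbB2, 12.49, 12.74 and 12.59 in Cas, and 11.85, 11.60 and 11.76 in control. Each single condition lay above control and the combination lay below it, with no overlap between the combination and any other group. The ErbB2 effect was -2.04 with Cas and 0.56 without, an interaction of -2.60 ± 0.18 (limma adjusted p = 1.18e-05), a 6.06-fold departure. SAA1 has a near-identical neighbour, SAA2, from which the probe may not separate it. TMT1A, a thiol methyltransferase, had 9.23, 9.27 and 10.14 in Cas/ErbB2, 11.08, 10.95 and 11.24 in ErbB2, 12.00, 11.90 and 12.06 in Cas, and 12.01, 12.03 and 11.74 in control (interaction -1.61 ± 0.28, limma adjusted p = 0.00464). Cas/ErbB2 replicate 3 was the mildest of its group there, as it was for CPVL, a carboxypeptidase, at 8.82, 9.35 and 10.06 (interaction -1.51 ± 0.33). MIX23 (-1.20), the small nucleolar RNA SNORD13 (-1.20) and SUGCT, a mitochondrial transferase (-1.17), completed the 6 largest. The calls of MIX23 and SNORD13 were each lost when any of 4 arrays was left out, control replicate 2 among them for both.

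Genes of DNA replication were low in the combination relative to the additive level. Of 14 measured members 9 had a negative interaction (background 6.01%) and 0 a positive one, with a median of -0.74, and leaving out single arrays gave 4 to 9, the lowest without control replicate 2 and the next lowest, 5, without Cas replicate 1. The 9 were PCNA, FEN1, MCM5, TYMS, POLE2, MCM4, MCM3, MCM7 and MCM6. TYMS, thymidylate synthase, had 10.41, 10.34 and 10.19 in Cas/ErbB2, 11.15, 11.19 and 11.29 in ErbB2, 11.53, 11.50 and 11.36 in Cas, and 11.52, 11.42 and 11.49 in control (interaction -0.88 ± 0.15, limma adjusted p = 0.00412). The Cas and control arrays overlapped and the Cas/ErbB2 arrays were lowest. PCNA, the sliding clamp of DNA polymerase, had 11.58, 11.63 and 12.17 in Cas/ErbB2, 12.30, 12.60 and 12.50 in ErbB2, 12.67, 12.49 and 12.53 in Cas, and 12.33, 12.18 and 12.25 in control (interaction -0.98 ± 0.21, limma adjusted p = 0.0123). Cas/ErbB2 replicate 3 lay just under the lowest control array, and the other arrays of its group lay well below. MCM5, a subunit of the replicative helicase, differed in kind: it rose with Cas alone (0.61) and stood at -0.08 from control in Cas/ErbB2. FEN1, the flap nuclease, had an interaction of -0.95, which was lost without control replicate 2 (limma adjusted p = 0.0565). Of 24 measured genes of mitosis 0 had a called interaction by limma (median -0.24, 3 at an unadjusted p under 0.05, against 2131 of all 8424 items). Of the 24, 10 fell with ErbB2 alone (background 12.7%) and 8 with Cas alone (background 7.83%). In Cas/ErbB2 17 were lower than control (background 20.4%), with a median of -0.83.

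Several inflammatory genes had large negative interactions. The list of inflammatory cytokines and targets of NF-kappaB, the transcription factor of innate immune responses, had 10 measured members, of which 6 had a negative interaction (background 6.01%), 1 a positive one, and the median was -1.48. Leaving out any single array gave 6 negative members. With ErbB2 alone 8 of the 10 rose (background 17.2%) and with Cas alone 7 rose (background 13%), while in Cas/ErbB2 6 rose against control (background 23.3%). CCL5, a chemokine for T cells, had 8.91, 8.71 and 8.35 in Cas/ErbB2, 9.41, 9.25 and 9.26 in ErbB2, 10.63, 10.35 and 10.24 in Cas, and 8.36, 8.29 and 8.04 in control. Cas alone was highest, ErbB2 alone next, and the combination lay between ErbB2 alone and control, overlapping control by its lowest array. The ErbB2 effect was -1.75 with Cas and 1.08 without it, an interaction of -2.83 ± 0.22 (limma adjusted p = 1.75e-05).

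LCN2, an iron-sequestering protein of the acute phase, had 9.43, 9.57 and 8.30 in Cas/ErbB2, 10.51, 9.24 and 9.79 in ErbB2, 11.76, 11.46 and 10.90 in Cas, and 8.74, 8.22 and 8.96 in control. Cas alone stood clear of every other group, and the remaining groups overlapped in part. Its interaction was -3.47 ± 0.51 (limma adjusted p = 0.00161), with an ErbB2 effect of -2.27 with Cas and 1.20 without. Cas/ErbB2 was not called against ErbB2 (-0.74, limma adjusted p = 0.253). S100A8, which with S100A9 forms calprotectin, had 14.69, 14.48 and 14.73 in Cas/ErbB2, 15.54, 15.32 and 15.37 in ErbB2, 15.24, 15.31 and 15.27 in Cas, and 14.38, 13.84 and 14.41 in control (interaction -1.83 ± 0.21, limma adjusted p = 0.000405). S100A9 had -1.76 ± 0.23 and the mitochondrial superoxide dismutase SOD2 -1.21 ± 0.19. IL1A, an epithelial alarm cytokine, was the exception with a positive interaction of 0.94 ± 0.22: it had 12.48, 12.87 and 12.79 in Cas/ErbB2 and at most 11.88 on any other array, a call lost without control replicate 3. The NF-kappaB feedback genes NFKBIA (0.14) and TNFAIP3 (-0.12) were not called.

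Genes of squamous differentiation, the programme that builds the cornified envelope of keratinizing epithelium, behaved in a similar way. Of 10 measured members 6 had a negative interaction (background 6.01%) and 0 a positive one, with a median of -1.40. Leaving out single arrays gave 4 to 6, the lowest without ErbB2 replicate 2 and without control replicate 2. S100A7, or psoriasin, had 9.46, 9.98 and 9.19 in Cas/ErbB2, 12.29, 11.13 and 11.14 in ErbB2, 12.24, 11.74 and 11.58 in Cas, and 9.67, 8.79 and 9.65 in control. Cas/ErbB2 and control overlapped, and both lay below ErbB2 and Cas on every array. The interaction of -4.47 ± 0.46 (limma adjusted p = 0.000163) was the largest in size among named genes, a 22.1-fold departure: the sum of the single effects was 4.64 and the combined change 0.17, which was not called. KLK5, the kallikrein protease that starts shedding of the cornified layer, had 9.52, 10.22 and 9.71 in Cas/ErbB2, 10.80, 10.86 and 10.77 in ErbB2, 11.27, 11.04 and 10.55 in Cas, and 8.95, 8.36 and 9.60 in control (interaction -2.98 ± 0.38, limma adjusted p = 0.000655). Control varied by more than 1 here, and a single control array reached the Cas/ErbB2 range.

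The small proline-rich proteins of the cornified envelope reached a plateau instead. SPRR2D had 12.36, 12.27 and 11.95 in Cas/ErbB2, 12.52, 12.20 and 12.24 in ErbB2, 12.50, 12.48 and 12.59 in Cas, and 11.16, 10.10 and 11.19 in control. The combination was about as high as either parent, all 3 groups lay above every control array, and control replicate 2 was the lowest array. The interaction was -1.84 ± 0.33 (limma adjusted p = 0.00518), and for SPRR2F it was -2.71 ± 0.33. SPRR1B (-1.54) and the crosslinking enzyme TGM1 (-1.26) were of the same kind, and the call of SPRR1A (-1.62) was lost when any of 8 arrays was left out. SPRR genes are a family of near-identical copies, so their probes may share signal. KRT10 (-0.42), KRT16 (-0.26), DSG3 (-0.24) and DSC2 (-0.01) were not called.

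**Figure D3:**
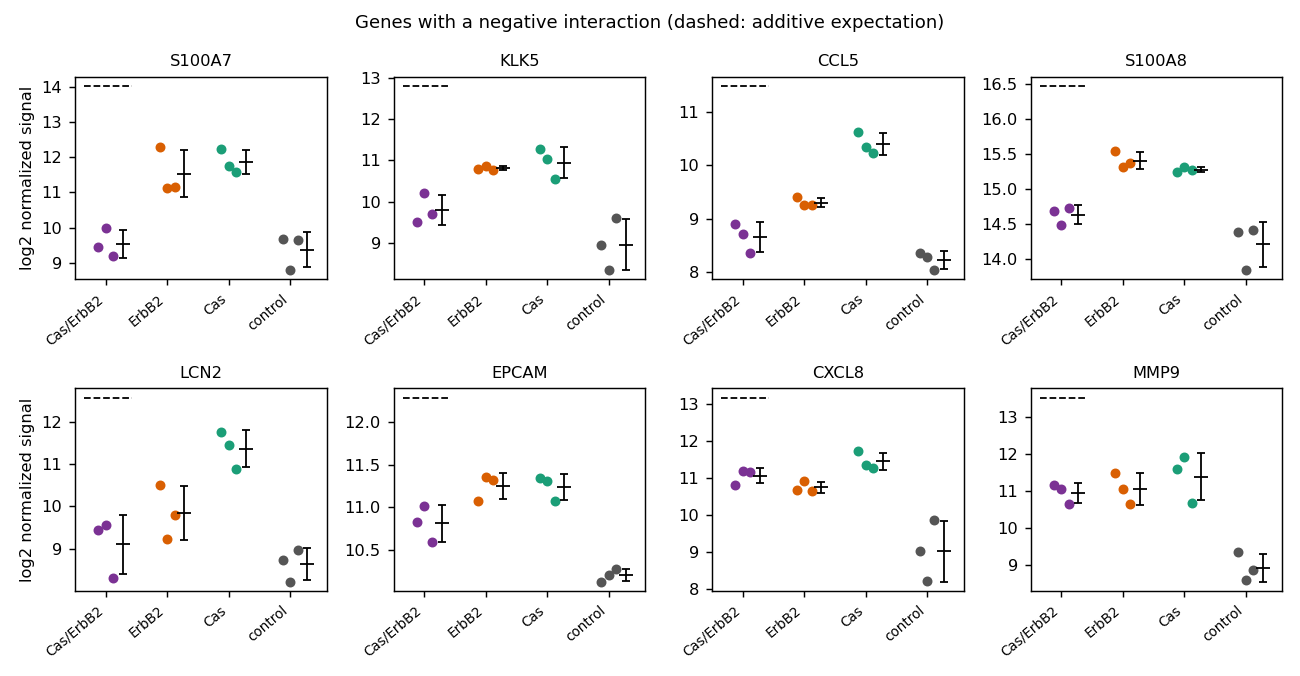
Log2 normalized signal (y axis) of 8 genes with a negative interaction on the 12 arrays, by group (x axis), drawn as in the plot of synergy genes. Every Cas/ErbB2 array lies below the dashed additive level. In S100A7, CCL5 and S100A8 the Cas/ErbB2 arrays also lie below those of ErbB2 and of Cas, while in CXCL8 and MMP9 they lie near them.

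In the panels of negative interactions, CXCL8 and MMP9 show the plateau pattern beside the cancellation of S100A7. CXCL8, the neutrophil chemokine interleukin-8, had 10.83, 11.20 and 11.16 in Cas/ErbB2, 10.69, 10.92 and 10.64 in ErbB2, 11.72, 11.36 and 11.28 in Cas, and 9.02, 8.22 and 9.86 in control (interaction -2.11 ± 0.42, limma adjusted p = 0.00718). MMP9, a gelatinase associated with invasion, had 11.15, 11.05 and 10.65 in Cas/ErbB2, 11.49, 11.05 and 10.64 in ErbB2, 11.58, 11.90 and 10.67 in Cas, and 9.34, 8.60 and 8.86 in control (interaction -2.57 ± 0.42, limma adjusted p = 0.00307). For MMP9 the Cas/ErbB2, ErbB2 and Cas arrays overlapped, for CXCL8 the Cas/ErbB2 arrays overlapped those of ErbB2 and lay below those of Cas, and for both genes control lay below all of them. S100P (-2.74), the elastase inhibitor PI3 (-2.48) and the cell surface protease FAP (-1.24) were further plateau genes. Tissue factor, F3, was intermediate: its changes against control were 2.17 in Cas/ErbB2, 1.95 in ErbB2 and 1.61 in Cas, an interaction of -1.38 ± 0.24. The decoy receptor TNFRSF6B had an interaction of -1.21 ± 0.23 that was not called without background correction or on the authors' processed values (-0.49 there, limma adjusted p = 0.0835).

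The luminal surface proteins MUC1, CD24 and EPCAM rose with either alone, and with both they were lower than with Cas alone. MUC1 was also lower in Cas/ErbB2 than in ErbB2 (-0.84), while CD24 (-0.69, limma adjusted p = 0.0722) and EPCAM (-0.44, limma adjusted p = 0.0713) did not pass that test. Of 6 measured luminal markers 3 had a negative interaction (background 6.01%), with a median of -1.08, and leaving out any single array gave 3. MUC1, a transmembrane mucin of the apical surface, had 12.09, 12.11 and 11.66 in Cas/ErbB2, 13.05, 12.66 and 12.68 in ErbB2, 12.92, 13.30 and 12.61 in Cas, and 12.01, 12.19 and 12.37 in control (interaction -1.60 ± 0.26, limma adjusted p = 0.00334). The ErbB2 effect was -0.99 with Cas and 0.60 without it. CD24, a glycosylphosphatidylinositol-anchored sialoglycoprotein, had 12.31, 12.48 and 12.18 in Cas/ErbB2, 13.25, 12.90 and 12.90 in ErbB2, 13.38, 13.46 and 12.99 in Cas, and 11.80, 12.25 and 12.81 in control (interaction -1.69 ± 0.30, limma adjusted p = 0.00526). EPCAM, an epithelial adhesion molecule, had 10.83, 11.02 and 10.59 in Cas/ErbB2, 11.07, 11.36 and 11.32 in ErbB2, 11.35, 11.31 and 11.07 in Cas, and 10.13, 10.21 and 10.28 in control (interaction -1.47 ± 0.19, limma adjusted p = 0.000661). EPCAM thus stayed above control on every Cas/ErbB2 array, whereas MUC1 and CD24 overlapped it. The interactions of KRT18 (-0.68), KRT8 (0.41) and KRT7 (-0.05) were not called. KRT8 was lower than control with ErbB2 alone (-0.89) and in Cas/ErbB2 (-0.81). KRT18 was higher with ErbB2 alone (0.66), with Cas alone (0.88) and in Cas/ErbB2 (0.86). KRT7 was higher with ErbB2 alone (0.71) and in Cas/ErbB2 (1.04). Among 8 measured basal markers LAMB3 and SNAI2 were positive (background 3.15%), 0 were negative, and KRT5 (0.05) and KRT14 (0.30) were not called. The lists overlap: LAMB3 is also counted in the basement membrane list and SNAI2 in the mesenchymal list.

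Further genes in the negative cancellation class were CRABP2, a retinoic acid carrier (-2.24 ± 0.27), and COXFA4L3 (-3.50 ± 0.31). COXFA4L3 had 9.27, 8.78 and 8.66 in Cas/ErbB2, 9.76, 10.05 and 9.62 in ErbB2, 11.14, 10.67 and 10.73 in Cas, and 8.44, 7.75 and 8.58 in control (limma adjusted p = 5.45e-05). The Cas arrays were highest, as for CCL5 and LCN2, and the Cas/ErbB2 arrays lay between those of ErbB2 and control. FGFBP1, a carrier of fibroblast growth factors, was highest with ErbB2 alone, at 12.09, 12.47 and 12.60 against 11.10, 11.78 and 11.52 in Cas/ErbB2 (interaction -1.81 ± 0.34, limma adjusted p = 0.0065).

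Cholesterol synthesis genes rose with ErbB2 alone in 9 of 15 measured members (background 17.2%) and with Cas alone in 5 (background 13%), and 5 had a negative interaction (background 6.01%), with a median of -0.62. Leaving out single arrays gave 3 to 5 negative members. The largest was FDPS (-1.06), a synthase of the isoprenoid branch, followed by HMGCS1 (-0.88), IDI1 (-0.80), CYP51A1 (-0.73) and LSS (-0.56). HMGCS1, the cytosolic enzyme that makes the substrate of the rate-limiting step, had 11.04, 11.25 and 11.42 in Cas/ErbB2, 11.63, 11.63 and 11.86 in ErbB2, 11.06, 11.18 and 11.26 in Cas, and 10.71, 10.62 and 10.94 in control. The Cas/ErbB2 arrays overlapped those of Cas and lay below every ErbB2 array. The call of CYP51A1 was lost when any of 8 arrays was left out, and SQLE (-0.07) and NSDHL (-0.01) were close to additive.

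The positive cancellation class, in which Cas/ErbB2 was higher than ErbB2 and than Cas but not higher than control by the test, held 17 items. Among them were PHF1, a Polycomb-associated chromatin protein, TACC1, a centrosomal protein, ZNF217, a transcriptional repressor amplified in breast cancer, ATP2B4, a plasma membrane calcium pump, TMTC1 and the adhesion receptor ADGRG2. PHF1 had 9.51, 9.13 and 9.36 in Cas/ErbB2, 8.91, 8.47 and 8.78 in ErbB2, 8.23, 8.35 and 8.27 in Cas, and 9.47, 9.26 and 9.18 in control (interaction 1.63 ± 0.20, limma adjusted p = 0.000472). Cas/ErbB2 and control overlapped, and both lay above ErbB2 and Cas throughout. PHF1, TACC1, ZNF217, ATP2B4 and TMTC1 fell with either alone, and ADGRG2 fell with Cas alone (-0.96), with an ErbB2 effect of -0.45 that was not called. The interactions of the others were 1.91 for ADGRG2, 1.58 for TACC1, 1.54 for ZNF217, 1.44 for ATP2B4 and 1.41 for TMTC1. In the asymmetric class METTL25B (1.60), the ceramide synthase CERS5 (1.59), the receptor phosphatase PTPRM (1.52), the terminal uridylyltransferase TUT7 (1.48), CD109 (1.42) and STAM (1.41) were of similar size.

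Across all items, the ErbB2 effect passed the test in opposite directions with and without Cas in 64. It was positive with Cas and negative without in 24, among them PSAT1, PELI1, PHF1 and AXL, and negative with Cas and positive without in 40, among them SAA1, S100A7, CCL5, KLK5, LCN2 and MUC1. The interaction was called in all 64. For 407 items the ErbB2 effect was positive in both settings and for 409 negative in both, with 61 and 16 interactions called.

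Additivity was judged by an interval, since a p-value that misses the threshold does not show it. An item was called additive within the bound when both single effects were called in the same direction and the 95% confidence interval of the interaction lay within 1 on the log2 scale on either side of 0. This held for 615 items (7.3%), of which 299 were higher and 316 lower than control in both single conditions. A bound of 0.5 left 65. PHLDA1, an ERK-induced gene, had 13.10, 13.12 and 12.72 in Cas/ErbB2, 12.16, 12.00 and 12.25 in ErbB2, 10.87, 11.04 and 10.77 in Cas, and 10.03, 9.76 and 10.03 in control. The groups did not overlap, and the combined change of 3.04 stood beside a sum of 3.16, with an interval of -0.54 to 0.31 for the difference. PLAU, the urokinase that activates plasmin at the cell surface, had 13.39, 13.47 and 13.45 in Cas/ErbB2, 12.75, 12.51 and 12.63 in ErbB2, 11.88, 12.14 and 11.89 in Cas, and 10.85, 10.76 and 11.11 in control (interval -0.63 to 0.12).

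Among additive genes that fell, EPHX1, the microsomal epoxide hydrolase, had 9.96, 9.75 and 9.77 in Cas/ErbB2, 10.71, 10.61 and 10.55 in ErbB2, 11.33, 11.53 and 11.38 in Cas, and 12.34, 12.38 and 12.18 in control (interval -0.25 to 0.43). TGFBR3, the TGF-beta co-receptor betaglycan, had 8.80, 9.17 and 8.79 in Cas/ErbB2, 9.80, 9.93 and 10.22 in ErbB2, 10.72, 10.61 and 10.65 in Cas, and 11.54, 11.85 and 11.67 in control (interval -0.47 to 0.40). For both genes Cas/ErbB2 was lowest, followed by ErbB2, Cas and control, without overlap. FSIP1, RAI14 and IRAK2 (higher) and RTN1, NCAPD2, TSPYL2 and TPP1 (lower) also met the rule, as did ACTG1P4, a pseudogene whose probe may read its parent actin gene. The rule does not require the interval to hold 0: it ran from 0.21 to 0.99 for TPP1, whose interaction was called in 9 of 26 other settings, and from -0.75 to -0.07 for IRAK2. Under median scaling over the kept probes IRAK2 (-0.66) and FSIP1 (-1.16, limma adjusted p = 0.00245) had called interactions.

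**Figure D4:**
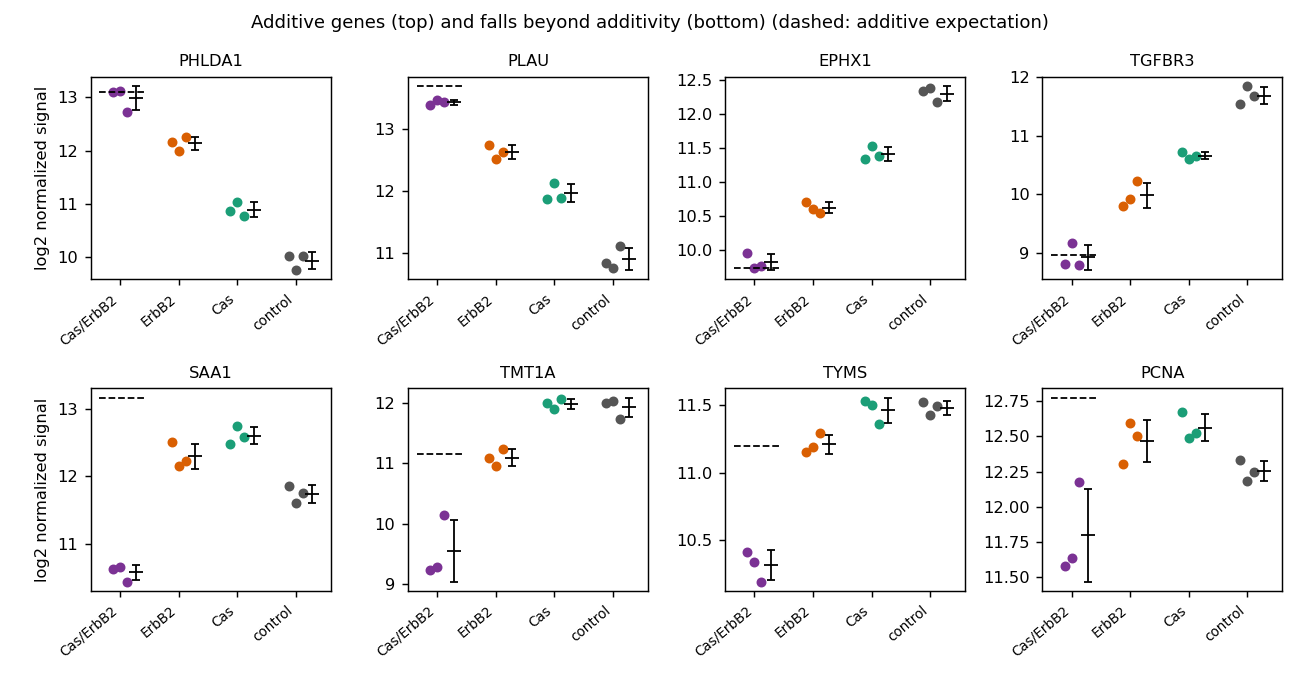
Log2 normalized signal (y axis) of 4 additive genes (top row) and 4 genes with falls beyond additivity (bottom row) on the 12 arrays, by group (x axis), drawn as in the plot of synergy genes. In the top row the Cas/ErbB2 arrays of PHLDA1, EPHX1 and TGFBR3 lie at or near the dashed additive level and those of PLAU lie just below it, and in the bottom row the Cas/ErbB2 arrays lie below it.

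The panels of additive genes contrast with SAA1, TMT1A, TYMS and PCNA below them. Over all items, both single effects were called in the same direction in 1350, of which 870 were higher and 480 lower than control. Among the 870, the interaction was called in the opposite direction in 364 and in the same direction in 1, and the medians were 0.80 for Cas/ErbB2, 0.75 for ErbB2 and 0.72 for Cas. Among the 480, it was called in the opposite direction in 101 and in the same direction in 1, and the medians were -0.80 for Cas/ErbB2, -0.67 for ErbB2 and -0.56 for Cas. The combined change was a median of 0.564 of the additive expectation over the 1350. These comparisons share the control arrays, whose shift would move the single and combined effects together. The items were also chosen because both single effects passed, and the control mean enters these with the sign opposite to that in the interaction. Such a choice by itself favours a large expectation and an opposite interaction. The counts and the median of 0.564 therefore describe the chosen items and do not test additivity.

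**Figure D5:**
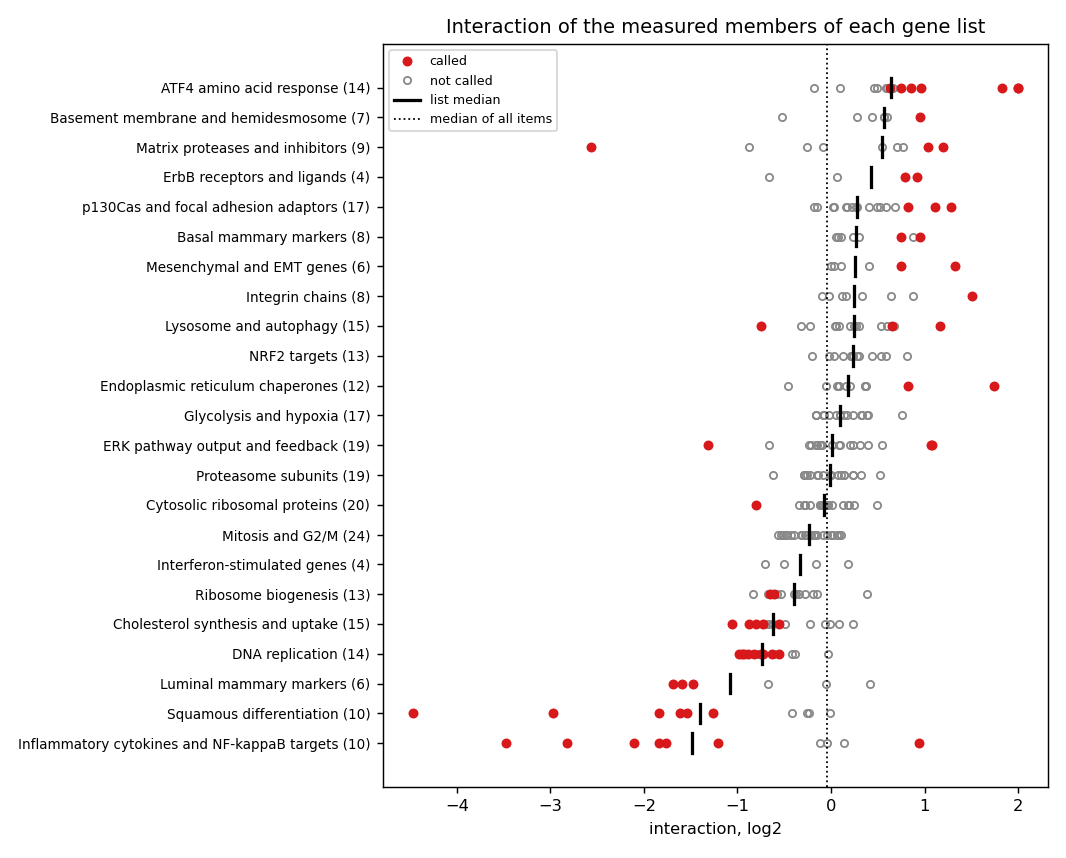
Interaction on the log2 scale (x axis) of each measured member of 23 gene lists (rows, number measured in brackets), sorted by the list median. Filled points were called by limma, open points were not, bars are list medians and the dotted line is the median of all items, -0.04. The ATF4 list is at the top with 7 filled points to the right, and the inflammatory and squamous lists are at the bottom with 6 filled points each to the left.

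The plot of gene lists also shows lists in which no member was called, which does not show that they were additive. Of 17 measured glycolysis and hypoxia genes 0 were called by limma (median 0.10, 1 at an unadjusted p under 0.05), of 13 NRF2 targets 0 (median 0.23, 4), of 19 proteasome subunits 0 (median -0.01, 2) and of 4 interferon-stimulated genes 0 (median -0.34, 1). Over all items, 2131 of 8424 had an unadjusted limma p under 0.05, and 3.15% had a called positive and 6.01% a called negative interaction. Ribosome biogenesis had 2 negative members of 13, NOP2 (-0.65) and NOP58 (-0.61), with a median of -0.40, and both calls were lost when any of several arrays was left out. Among 20 cytosolic ribosomal proteins RPL13 was negative (-0.80) and the median was -0.08. Among 15 lysosomal and autophagy genes NPC1 and CTSB (0.65) were positive and CTSH (-0.74) negative, with the CTSH call lost when any of 10 arrays was left out and the CTSB call when any of 8 was left out, and also under median scaling over the kept probes and with the mean of its probes. Among 6 mesenchymal genes AXL and SNAI2 were positive, and CDH1 (0.00), VIM (0.11) and TWIST1 (0.40) were not called.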

How the data were processed

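Per the labels, biotin-labelled total RNA was hybridized to Illumina bead arrays. Per the file headers, the authors deposited, for each of 47224 probes on 12 arrays, the average bead intensity (linear, without background subtraction or normalization) with its detection p-value. A further deposited table holds the authors' processed intensities with equal column medians (439.6) and was used as an alternative. The scanner software is not named in the labels or headers.

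Signals were background-corrected from the detection p-values, quantile normalized and converted to log2 (neqc of limma 3.58.1 in R 4.3.3, offset 16). The platform annotation gave 30111 probes a single symbol, 8 several and 17105 none, and 30072 symbols were updated by gene ID. The 4 group means were fitted with limma, variances were moderated by empirical Bayes, and p-values of each of 6 comparisons were adjusted by Benjamini-Hochberg. The fit was checked on simulated arrays with known interactions and independent noise. That check could not address a shift of the control arrays or a deviant array.

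Named genes are the 10 largest called interactions of each sign, the 6 largest of each class and sign, the 6 additive genes with the largest smaller single effect of each sign, BCAR1, ERBB2 and, for every list, at most 4 called members. Other list members are named after their values were seen. The members and lists were chosen with earlier results of these data known. Precision is limited by the 3 arrays per group. Figures were drawn with matplotlib 3.10.9 in Python 3.11.15.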

Additional observations from a re-analysis of the deposited data

Results flagged for a closer look

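The ErbB2 effect differed with and without Cas by the test of the interaction itself in 771 items, and it passed in opposite directions in 64. Among the named genes, the ErbB2 effect was positive with Cas and negative without it for PSAT1 (interaction 2.00), PHF1 (1.63), PELI1 (1.62), METTL25B (1.60), CERS5 (1.59), TACC1 (1.58), ZNF217 (1.54), PTPRM (1.52), ATP2B4 (1.44), TMTC1 (1.41), AXL (1.32) and EDEM1 (0.83). It was negative with Cas and positive without it for S100A7 (-4.47), COXFA4L3 (-3.50), LCN2 (-3.47), KLK5 (-2.98), CCL5 (-2.83), SAA1 (-2.60), CRABP2 (-2.24), S100A8 (-1.83), CD24 (-1.69), MUC1 (-1.60), EPCAM (-1.47) and CCDC85B (-1.19). The hybridization mark and the lower raw signal of the control arrays moved with the effect without Cas, and their part in these values cannot be told apart from the group. Groups of 3 arrays were not tested for outliers.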

How the results depend on the processing

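No named gene with a called interaction changed sign under the 26 settings in which single genes were read. In part of these the sign could not change. Stricter cutoffs, other detection filters, single probes, trend moderation and the replicate block give a probe the same interaction. The count is therefore informative only for other normalizations, probe means, array weights and left-out arrays. Under median scaling over all probes 24 of 45 negative ones changed sign, but 0 relative to the median of all items. Without background correction and on the authors' processed values the sizes were a median of 0.781 and 0.747 times those reported, and 23 and 28 of the 91 called named genes moved by over 1.5 times. The reported counts were 771 interaction calls (265 positive, 506 negative), with 149 synergy, 48 cancellation, 373 plateau, 128 asymmetric, 73 remaining and 615 additive items. A background offset of 50, median scaling over the kept probes, a stricter detection p, single probes, probe means and trend moderation kept every count within 1.5 times. No background correction and the authors' processed values moved only the additive count, to 1002 and 1033. The share of negative calls was 65.6%, against 36.8% with detection on at least 3 arrays. That filter gave 2290 calls (1447 positive, 843 negative), 28 cancellation, 1641 plateau, 243 asymmetric and 197 remaining items. No filter gave 3325 (2144, 1181), 13, 2716, 222 and 245, with 1367 additive. Array weights gave 1567 (588, 979), 277 synergy, 97 cancellation, 756 plateau, 278 asymmetric, 159 remaining and 1316 additive items. Adjusted p under 0.01 gave 260 (94, 166), 43, 5, 122, 66, 24 and 157 in that order, and a size of at least 1 gave 298 (87, 211), 20, 5, 94, 38, 141 and 7. A bound of 0.5 left 65 additive items. Median scaling over all probes, most of them undetected and chosen after seeing the data, moved the median interaction to 1.58 and gave 7694 (7684, 10), with 3 synergy, 0 cancellation, 7434 plateau and 113 remaining items. Leaving out single arrays gave 394 to 1037 calls, 146 to 359 positive and 248 to 678 negative, 84 to 212 synergy, 10 to 72 cancellation, 167 to 468 plateau, 71 to 175 asymmetric, 25 to 110 remaining and 221 to 926 additive items, mostly lowest without control replicate 2 and in each case highest without Cas/ErbB2 replicate 3. The cause was not tested.

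The replicate number as a block gave 978 calls. The labels do not say that a shared number marks a shared culture or day, and 11 of 18 correlations of deviations between same-numbered arrays were over 0.1 (range -0.223 to 0.383), with all 3 over 0.1 for Cas and control but for no other pair of groups, so the numbers were not taken as pairs. In 23 of 36 cases an array correlated best with its own number in another group, a hint from the data and not from the design. The block kept 761 of the 771 calls in the same direction and changed no call of a named gene.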

Other observations

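Probes without a gene symbol were negative more often: 11.8% of 1847 had a negative and 1.46% a positive interaction, against 4.38% and 3.62% of 6577 named genes. They made up 166 of the 302 negative plateau items (55.0%). With items split by brightness into groups of 2808, the median interaction was -0.14 in the dimmest, 0.00 in the middle and -0.02 in the brightest group.

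TEK, the angiopoietin receptor of endothelial cells, fell outside the detection rule. It was detected on 3 of 3 arrays of Cas/ErbB2, 3 of ErbB2, 2 of Cas and 0 of control. Mean signals were 11.77, 9.28, 8.04 and 7.34 in that order. Of the other endothelial markers, PECAM1 was detected on all 12 arrays and VWF, CDH5, KDR and CLDN5 on none. TEK was chosen after its values were seen.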
